A study of Macaca mulatta with 14 samples.

Results

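Hippo pathway effectors and YAP targets were followed as a list of 10 genes named by symbol: the coactivators YAP1 and WWTR1 (TAZ), the DNA-binding partners TEAD1 to TEAD4, the kinase LATS2, the inhibitor AMOTL2, and the target genes ANKRD1 and CYR61. Of these, 9 had values under their symbol among the 33688 gene loci kept, and AMOTL2 was not analysed here. The study converted ear skin fibroblasts of Macaca mulatta, from 2 male fetuses of day 65, to neuroepithelial stem cells (NESCs), and 7 cell lines were sequenced with 2 libraries each. RF-P3 is the starting fibroblast culture, grown in serum and not infected. RF-iN-d5 and RF-iN-d11, called day 5 and day 11 here, are fibroblasts given retroviral SOX2, OCT4 and KLF4 and replated on laminin. Their neural medium held CHIR99021 (a GSK3 inhibitor that activates WNT signalling), SB431542 (a TGF-beta receptor inhibitor), bFGF and vitamin C. The ROCK inhibitor Y27632 was withdrawn at day 5, and the histone deacetylase inhibitor valproic acid between day 5 and day 11. CHIR-P6 and CHIR-P23 are epithelial colonies at passages 6 and 23, kept on laminin in a medium with SB431542, bFGF, vitamin C and LIF. The labels add CHIR99021 to this medium, while the paper's methods do not list it there. C8-P7 and A9-P7, called colony C8 and colony A9, were each grown from a single cell of the passage 23 culture in that medium. All lines but RF-P3 thus received the retroviral factors, and the 4 NESC lines are stages or clones of 1 conversion.

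The Hippo pathway is a kinase cascade that restrains the coactivators YAP and TAZ. The kinases STK3 and STK4 activate LATS1 and LATS2, which phosphorylate YAP and TAZ and keep them in the cytoplasm; when the cascade is off, as in spread cells on a stiff support, they enter the nucleus, bind TEAD factors and switch on genes such as CYR61, CTGF and ANKRD1. LATS2 and the angiomotins are themselves induced by YAP and act back on it. RNA levels, the only measure here, do not show phosphorylation, nuclear location or protein amount.

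Values are FPKM (fragments per kilobase of transcript, scaled to library depth), so that levels of different genes can be set side by side. Library totals were 571238 to 697883 FPKM. Relative depth, inferred from the steps between low FPKM values and not from read counts, ran from 1 in RF-P3 to 4.72 in CHIR-P23 and 5.28 in colony A9. Paired libraries of a line varied less than sampling noise allows for separate samples, and were averaged to 1 sample per line. By the call rule given below, fibroblast markers were lower in the NESC lines in 12 of 12 genes, where 13.2% of all genes were. Their summed level was 4338 to 7465 FPKM before and 2.44 to 76.9 after. Neuroepithelial markers were higher in 11 of 14, where 7.57% of all genes were. Of these calls, 2 and 3 were of genes that passed the filter on low values through 1 stage alone. In such bulk samples, fewer cells of a type and less RNA per cell cannot be told apart.

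The first question was which members differ between the NESC lines (n = 4) and the earlier lines, which are RF-P3, day 5 and day 11 (n = 3). TEAD2 was higher in NESCs, WWTR1, TEAD3 and CYR61 were lower, and YAP1, TEAD1, TEAD4, LATS2 and ANKRD1 were not called. A call needed an adjusted p under 0.05 by limma on log2(FPKM + 1) and a log2 fold change of at least 1 in either direction. The 1 member called higher stands against 7.57% of the 15024 genes tested, and the 3 called lower against 13.2%. Leaving out 1 line at a time gave 2 to 5 members called lower, with 5 when day 11 was left out. NESC and earlier averages did not overlap in 7 members, with TEAD2 above (21.1% of all genes) and 6 below (24.7%). In either direction, 45.8% of all genes did not overlap. Among the 6, ANKRD1 entered the test through earlier lines alone. Its separation rests on averages under 1 FPKM, 0.538 at day 11 and 0.277 in CHIR-P6. The median log2 fold change was -0.95 over the members and -0.02 over all genes. Because the lines are successive stages, the p-values reflect variation between lines and not between repeated conversions. The medium changed with the stage, and the effects of both cannot be told apart. It also changed within the earlier lines, as RF-P3 was grown in serum and day 5 and day 11 in neural medium.

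**Figure D1:**
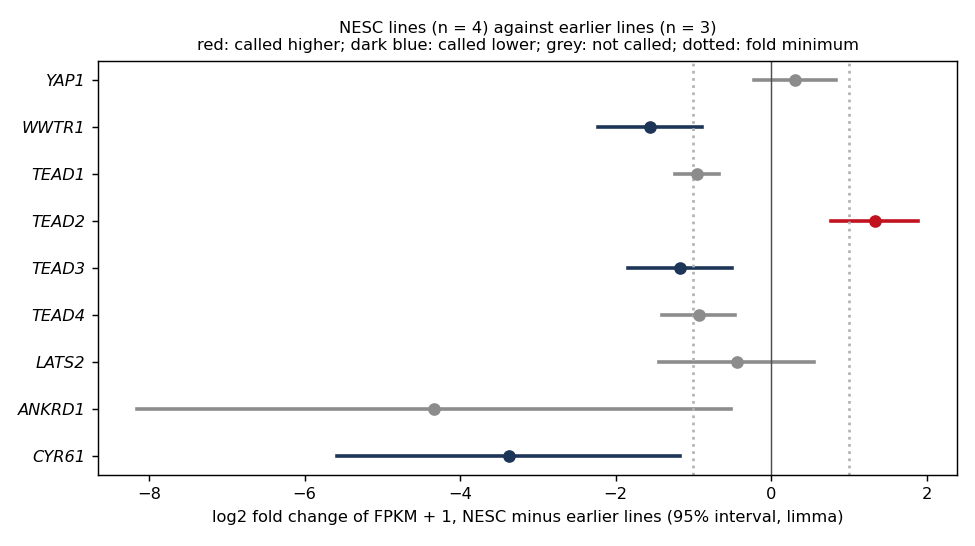
Log2 fold change of FPKM + 1 (NESC minus earlier lines) for the 9 members, with points for the limma estimate, bars for its 95% interval and dotted lines at the fold minimum of 1. TEAD2 lies at 1.33 and WWTR1 at -1.56, while the bar of YAP1 runs from -0.22 to 0.84 across 0.

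YAP1, the coactivator that carries the output of the pathway, was expressed in every line. Its 2 libraries gave 62.8 and 62.2 FPKM for RF-P3, 30.8 and 31.3 for day 5, 38.1 and 38.4 for day 11, 45.1 and 46.2 for CHIR-P6, 52.0 and 52.1 for CHIR-P23, 58.4 and 59.2 for colony C8, and 53.6 and 53.7 for colony A9. RF-P3 was the highest line and day 5 the lowest, and every NESC line lay between day 11 and RF-P3. YAP1 averaged 52.5 ± 5.41 FPKM in NESCs and 44.0 ± 16.5 before (SD, n = 4 and n = 3). The log2 fold change was 0.31 with SE 0.23 (95% interval -0.22 to 0.84, adjusted p = 0.31), and 0.59 without RF-P3 (adjusted p = 0.017), under the fold minimum.

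WWTR1 encodes TAZ, the paralogue of YAP that binds the same TEAD factors. Its 2 libraries gave 25.7 and 26.0 FPKM for RF-P3, 30.2 and 30.1 for day 5, 43.8 and 43.6 for day 11, 17.2 and 18.0 for CHIR-P6, 8.67 and 8.71 for CHIR-P23, 8.95 and 8.70 for colony C8, and 8.49 and 8.45 for colony A9. It was highest at day 11, lower in CHIR-P6 by 2.48-fold, and lowest in the other NESC lines, with no overlap between the stages. WWTR1 fell from 33.2 ± 9.30 FPKM to 10.9 ± 4.47 in NESCs (SD, n = 3 and n = 4). The log2 fold change was -1.56 with SE 0.29 (adjusted p = 0.0058), and the call held without any 1 line (adjusted p = 0.0015 to 0.022).

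WWTR1 made up 29.3% of the summed FPKM of YAP1 and WWTR1 at RF-P3, 49.2% at day 5, 53.3% at day 11, 27.8% at CHIR-P6, 14.3% at CHIR-P23, 13.0% at colony C8 and 13.6% at colony A9. The pair was thus near balance during induction, while YAP1 stood at 5.99 to 6.66 times WWTR1 in the last 3 NESC lines. The sum of both genes was 61.2 to 88.4 FPKM before and 60.7 to 67.6 in NESCs, which overlap. These shares carry no test.

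**Figure D2:**
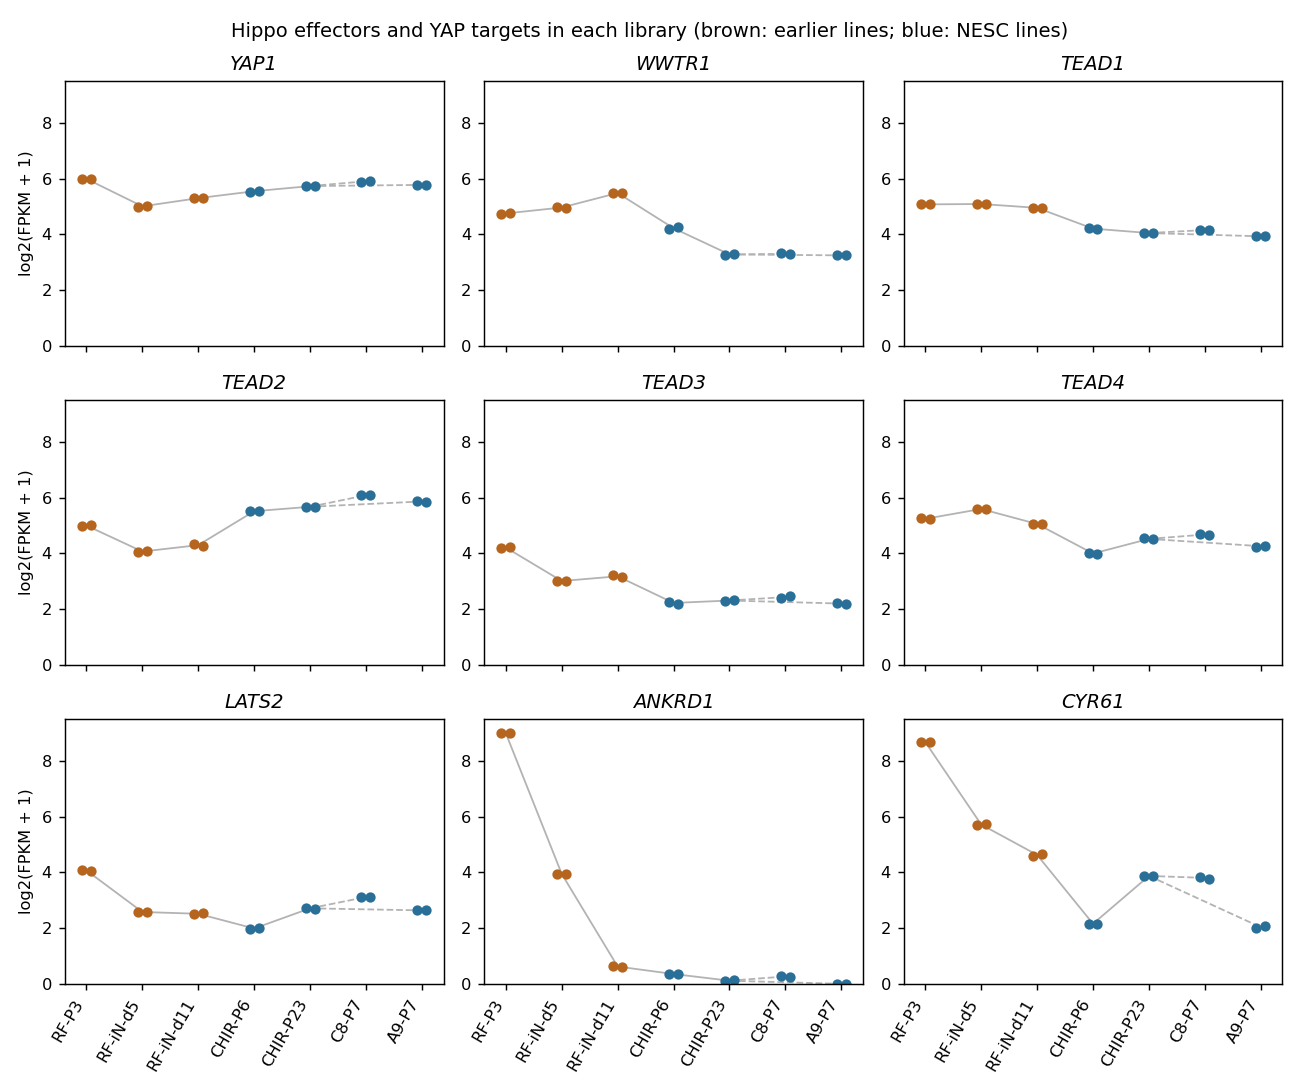
Log2(FPKM + 1) of the 9 members in each of the 14 libraries, with 2 points per line, solid grey lines through the averages in the order of the conversion and dashed lines from CHIR-P23 to each colony grown from it. The points of a pair nearly coincide; ANKRD1 goes from 509 FPKM in RF-P3 to 0.538 at day 11, and TEAD2 is above its earlier levels in all 4 NESC lines.

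The TEAD factors are the DNA-binding partners through which YAP and TAZ act, and TEAD2 is known in the mouse from early embryos and neural progenitors. Its 2 libraries gave 30.7 and 31.2 FPKM for RF-P3, 15.5 and 15.9 for day 5, 18.9 and 18.3 for day 11, 44.9 and 44.4 for CHIR-P6, 50.0 and 49.8 for CHIR-P23, 67.0 and 66.7 for colony C8, and 57.3 and 57.0 for colony A9. Every NESC library of TEAD2 was above every earlier one, with the low point at day 5 and a step up of 2.40-fold from day 11 to CHIR-P6. TEAD2 rose from 21.8 ± 8.09 FPKM to 54.7 ± 9.63 in NESCs (SD, n = 3 and n = 4). The log2 fold change was 1.33 with SE 0.24 (adjusted p = 0.0054), and 1.14 to 1.60 without 1 line, always called.

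TEAD1, a widely expressed member of the family, gave 32.7 and 32.7 FPKM for RF-P3, 33.1 and 32.8 for day 5, 29.8 and 30.0 for day 11, 17.5 and 17.3 for CHIR-P6, 15.5 and 15.5 for CHIR-P23, 16.8 and 16.7 for colony C8, and 14.1 and 14.3 for colony A9. The levels formed separate bands of 31.8 ± 1.71 FPKM before and 16.0 ± 1.42 in NESCs (SD, n = 3 and n = 4). The log2 fold change of TEAD1 was -0.95 with SE 0.12 (adjusted p = 0.0013), which passed the adjusted p but not the fold minimum.

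TEAD4, known in the mouse for its role in the trophectoderm, gave 37.1 and 36.4 FPKM for RF-P3, 47.5 and 46.9 for day 5, 32.4 and 32.0 for day 11, 15.2 and 14.7 for CHIR-P6, 22.2 and 21.6 for CHIR-P23, 24.8 and 24.3 for colony C8, and 17.9 and 18.3 for colony A9. It was highest at day 5 and lowest in CHIR-P6, with no overlap between the stages. The log2 fold change of TEAD4 was -0.93 with SE 0.20 (adjusted p = 0.011), under the fold minimum, which it passed without day 11 (log2 -1.05) or without colony C8 (log2 -1.04).

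TEAD3, the least expressed of the family in every line, gave 17.4 and 17.5 FPKM for RF-P3, 7.07 and 6.99 for day 5, 8.28 and 7.80 for day 11, 3.83 and 3.49 for CHIR-P6, 3.91 and 3.98 for CHIR-P23, 4.27 and 4.50 for colony C8, and 3.61 and 3.56 for colony A9. RF-P3 stood well above the rest, and the NESC lines lay together at 3.89 ± 0.363 FPKM (SD, n = 4), below each earlier line. TEAD3 fell between the stages, with a log2 fold change of -1.18 and SE 0.29 (adjusted p = 0.017). This call needed RF-P3, without which the log2 fold change was -0.80 (adjusted p = 0.0084).

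In the summed FPKM of TEAD1 to TEAD4, TEAD2 took 26.3% at RF-P3, 15.3% at day 5, 21.0% at day 11, 55.4% at CHIR-P6, 54.7% at CHIR-P23, 59.4% at colony C8 and 61.4% at colony A9. TEAD4 was the largest share in all earlier lines, at 31.2% in RF-P3, 45.9% at day 5 and 36.3% at day 11, whereas in each NESC line TEAD2 was above the other three together. The summed FPKM of the family overlapped between the stages, at 88.7 to 118 before and 80.6 to 113 in NESCs. These shares are a description with no test.

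**Figure D3:**
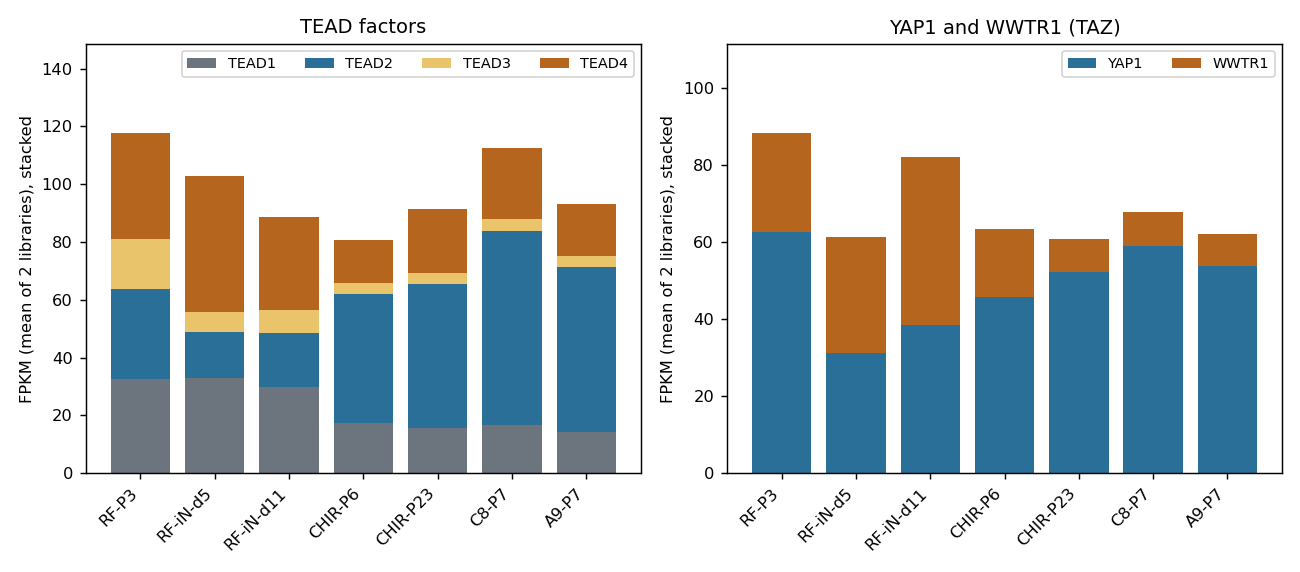
Stacked FPKM (mean of 2 libraries) of TEAD1 to TEAD4 on the left and of YAP1 and WWTR1 on the right, for the 7 lines. TEAD2 goes from 15.3% of its family at day 5 to 61.4% in colony A9, and WWTR1 from 53.3% of the pair at day 11 to 13.6% in colony A9.

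LATS2, the kinase that inactivates YAP and is itself induced by it, gave 15.9 and 15.8 FPKM for RF-P3, 5.04 and 4.92 for day 5, 4.66 and 4.77 for day 11, 2.93 and 2.99 for CHIR-P6, 5.65 and 5.44 for CHIR-P23, 7.63 and 7.69 for colony C8, and 5.21 and 5.22 for colony A9. RF-P3 was highest and CHIR-P6 lowest, while day 5 and day 11 lay within the range of the NESC lines. The log2 fold change of LATS2 was -0.44 with SE 0.43 (95% interval -1.44 to 0.55, adjusted p = 0.43), and 0.065 without RF-P3. Its paralogue LATS1 was flatter, from 6.76 FPKM in colony A9 to 9.02 in CHIR-P6.

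Of the 10 other core kinases and scaffolds tested, 1 was lower in NESCs, where 13.2% of all genes were. Of the rest, 0 were higher, where 7.57% of all genes were, and 9 were not called. Their median log2 fold change was -0.21 against -0.02 over all genes. At an unadjusted p under 0.05, 2 of the 11 core genes with LATS2 were lower, where 26.4% of all genes were, and 0 were higher, where 22.1% were. The one called was TAOK3, a kinase upstream of STK3 and STK4, which fell from 17.1 ± 4.99 FPKM to 3.39 ± 0.594 (SD, n = 3 and n = 4; log2 -2.02, SE 0.22, adjusted p = 6.7e-04). MOB1A, the LATS cofactor and most abundant of those not called, was at 31.9 ± 5.16 FPKM before and 33.7 ± 2.38 in NESCs (SD, n = 3 and n = 4).

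Both target genes of the list were far higher in RF-P3 than in any other line. ANKRD1, a nuclear ankyrin repeat protein of muscle and a common readout of YAP, gave 510.2 and 507 FPKM for RF-P3, 14.5 and 14.3 for day 5, 0.541 and 0.534 for day 11, 0.276 and 0.277 for CHIR-P6, 0.0720 and 0.0899 for CHIR-P23, and 0.201 and 0.200 for colony C8, and was listed at 0 in both libraries of colony A9. By FPKM ratio it was 35.4-fold lower at day 5 than in RF-P3 and 26.7-fold lower at day 11 than at day 5. Most of the decrease thus preceded the NESC lines. The second ratio rests on a day 11 level under 1 FPKM, and on the log2(FPKM + 1) scale that step was -3.32. ANKRD1 was at 1 FPKM or more in 4 libraries, those of RF-P3 and day 5, and so entered the test through earlier lines alone. Its log2 fold change of -4.34 with SE 1.64 did not pass (95% interval -8.15 to -0.52, adjusted p = 0.072). The value was -2.10 without RF-P3 and -6.29 without day 11, where ANKRD1 was called (adjusted p = 0.014).

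Muscle markers were also highest in RF-P3. Summed over the 8 with values they were at 219.5 FPKM there, 16.5 at day 5, 7.16 at day 11, 133 in CHIR-P6, and 0.902 to 13.9 in the later NESC lines. In RF-P3, the cardiac actin ACTC1 was at 70.9 FPKM, the troponin TNNC1 at 56.0 and the myogenic factor MYOG at 5.09, while MYF5 and CKM were at 0.0567 and 0.205. The sum in CHIR-P6 was nearly all desmin (DES, 133 FPKM), with ANKRD1 at 0.277 FPKM. The part of muscle-like cells in the ANKRD1 level was not tested.

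CYR61 (CCN1), a secreted matricellular protein and direct target of YAP and TEAD, gave 408 and 409 FPKM for RF-P3, 51.0 and 52.2 for day 5, 23.3 and 24.1 for day 11, 3.48 and 3.43 for CHIR-P6, 13.6 and 13.7 for CHIR-P23, 13.2 and 12.7 for colony C8, and 2.99 and 3.19 for colony A9. It was lower at each of the first 3 steps, by 7.91-fold, 2.18-fold and 6.87-fold, with every NESC line below every earlier one. Among NESCs, CYR61 was 3.95-fold higher in CHIR-P23 than in CHIR-P6, and colony A9 was 4.19-fold below colony C8 and 4.42-fold below CHIR-P23.

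Between the stages CYR61 fell from 161 ± 215 FPKM to 8.29 ± 5.80 (SD, n = 3 and n = 4), a log2 fold change of -3.38 with SE 0.95 (adjusted p = 0.027). The call was lost without day 5 (log2 -3.69, adjusted p = 0.058), without CHIR-P6 (log2 -3.10, adjusted p = 0.060) and without colony A9 (log2 -3.06, adjusted p = 0.075). Without RF-P3 it was kept, at log2 -2.21 (adjusted p = 0.036).

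The second question was at which step the members moved. With 1 sample per line these differences are descriptions, counted from 2-fold on the log2(FPKM + 1) scale. Going from RF-P3 to day 5, TEAD3, LATS2, ANKRD1 and CYR61 were lower, 4 of 9 members where 8.42% of all genes were, and 0 were higher, where 9.37% were. YAP1 and TEAD2 came just short of the limit there, with log2 differences of -0.99 and -0.93. Serum, retroviral infection, laminin and the added compounds all changed between RF-P3 and day 5, and their effects cannot be told apart. Going from day 5 to day 11, ANKRD1 and CYR61 were lower, 2 of 9 where 2.52% of all genes were, and 0 were higher, where 2.85% were.

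From day 11 to CHIR-P6, TEAD2 was higher, 1 of 9 where 8.49% of all genes were, and WWTR1, TEAD4 and CYR61 were lower, 3 of 9 where 13.1% were. TEAD3 was just under the limit at that step, with a log2 difference of -0.96. At the later steps CYR61 was the one member past the limit, and WWTR1 was just short of it in CHIR-P23 against CHIR-P6, with a log2 difference of -0.94. In CHIR-P23 against CHIR-P6, CYR61 was higher, as 1.39% of all genes were, and 0 members were lower, as 4.28% of genes were. In colony A9 CYR61 was lower than in CHIR-P23, as 2.59% of genes were (1.57% were higher), and lower than in colony C8, as 1.19% were (1.33% were higher). Between colony C8 and CHIR-P23, 0 of 9 members were 2-fold apart, where 1.04% of genes were higher and 2.39% lower.

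A wider YAP and TAZ target signature of 22 genes was read in the same fit, of which 19 had values, LATS2, ANKRD1 and CYR61 among them. Of the 16 that are no members, 9 were lower in NESCs, where 13.2% of all genes were, and 1 was higher, where 7.57% were. The other 6 were not called, and the median log2 fold change was -1.46. Among the 9, NT5E and FOXF2 had no NESC library at 1 FPKM and entered the test through the earlier lines alone, as ANKRD1 did. IGFBP3, which binds insulin-like growth factors in serum and tissue, fell the most (log2 -6.36, SE 0.98, adjusted p = 0.0028). MYOF, the membrane repair protein myoferlin, fell from 62.5 ± 7.66 FPKM to 1.53 ± 1.74 (SD, n = 3 and n = 4; log2 -4.95, SE 0.54, adjusted p = 7.2e-04). CCDC80, a matrix protein, was next (SE 0.83, adjusted p = 0.0098), from 414 FPKM in RF-P3 to 2.68 in colony C8. NUAK2, a kinase induced by YAP, was the one gene that rose, from 4.62 ± 1.66 to 14.8 ± 3.40 FPKM (SD, n = 3 and n = 4; log2 1.51, SE 0.25, adjusted p = 0.0036). Over all 19 genes 10 were lower, and 7 to 11 without 1 line. The fibroblast markers fell across the same lines, and their part in this list was not tested.

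CTGF (CCN2), the other common readout of YAP, was at 133 FPKM in RF-P3, 41.7 at day 5, 14.6 at day 11, 4.09 in CHIR-P6, 17.7 in CHIR-P23, 24.3 in colony C8 and 2.66 in colony A9. As with CYR61, CHIR-P6 and colony A9 were its lowest lines, but here CHIR-P23 and colony C8 were above day 11, so the stages overlapped. CTGF did not pass the test (log2 -2.20, SE 0.89, adjusted p = 0.087).

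**Figure D4:**
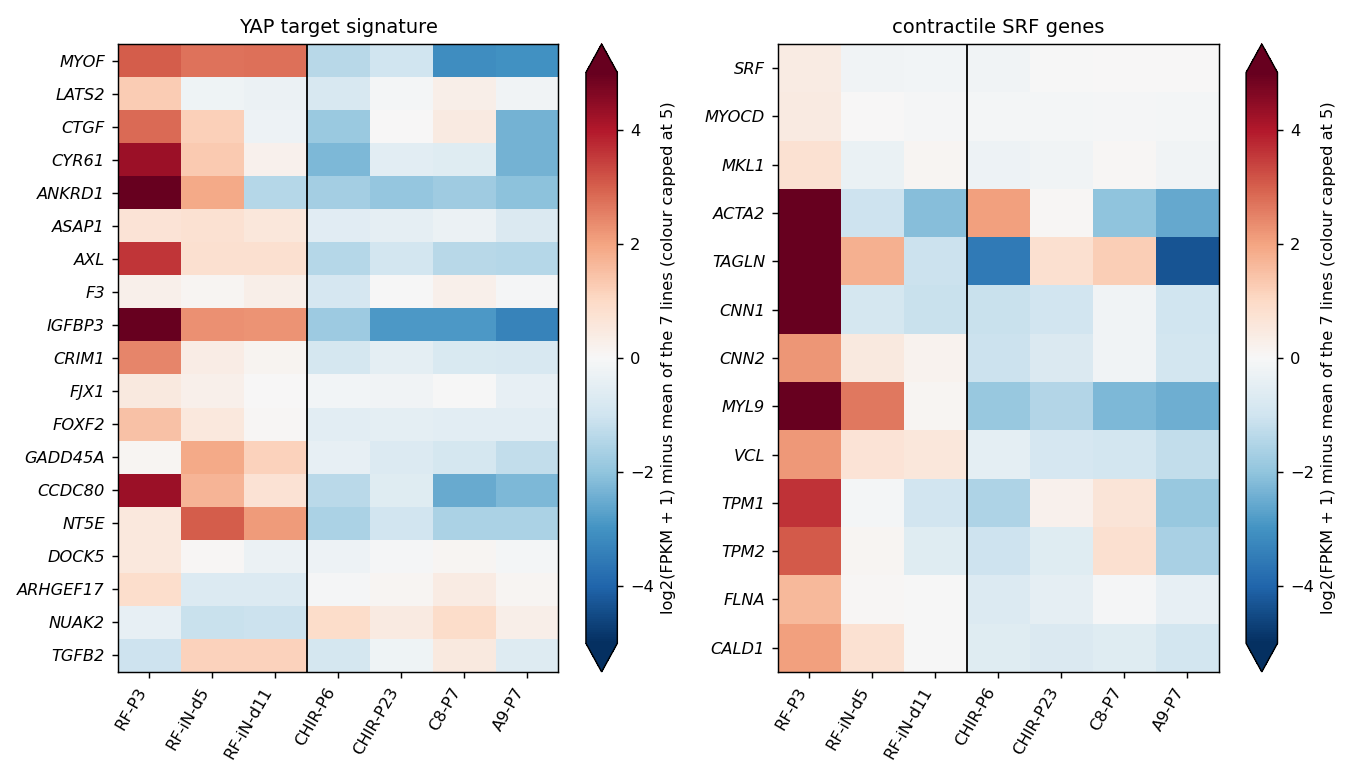
Log2(FPKM + 1) minus the mean of the 7 lines for the 19 genes of the YAP target signature (left) and a contractile list (right). The contractile list has 13 genes, the regulators SRF, MYOCD and MKL1 included. Red is above and blue below the mean, colours are capped at 5, and a black line divides earlier and NESC lines. CTGF, CYR61, TAGLN and TPM1 are lower in CHIR-P6 and colony A9 than in CHIR-P23 and colony C8.

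Contractile genes, which respond to SRF and its actin-regulated cofactors, were listed as a second set that is high in spread cells. The list also held the regulators SRF, MYOCD and MKL1, of which MYOCD did not pass the filter on low values. Of 12 tested, 4 were lower in NESCs (MYL9, VCL, CNN2 and CALD1), where 13.2% of all genes were, and 0 were higher, where 7.57% were. The other 8, SRF and MKL1 among them, were not called, and the median log2 fold change was -1.57. At an unadjusted p under 0.05, 5 were lower, where 26.4% of all genes were, and 0 were higher, where 22.1% were. Without colony A9, 2 were called lower. MYL9, a myosin light chain, fell the most (log2 -4.71, SE 1.05, adjusted p = 0.012). TPM1, a tropomyosin and the most abundant of those not called, was at 1369.7 FPKM in RF-P3 and at 29.1 to 174 in NESCs. The list summed to 5585 FPKM in RF-P3, 818 at day 5, 528 at day 11 and 278 to 702 in NESCs.

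Of 14 genes tested that bind YAP or feed into LATS from junctions, 2 were higher in NESCs, 4 were lower and 8 were not called. Their median log2 fold change was -0.24, and of all genes 7.57% were called higher and 13.2% lower. CRB2, an apical polarity protein, rose from 0.244 ± 0.209 FPKM to 26.8 ± 3.78 (SD, n = 3 and n = 4; log2 4.49, SE 0.19, adjusted p = 3.6e-05). No earlier library of CRB2 reached 1 FPKM, so it entered the test through the NESC lines where it is high and had to differ. AMOT, the angiomotin that binds YAP, rose from 8.72 ± 2.43 to 19.1 ± 6.83 FPKM (SD, n = 3 and n = 4; log2 1.02, SE 0.31, adjusted p = 0.037), close to the fold minimum. Only 1 gene of this list was called higher without day 5, day 11, CHIR-P23, colony C8 or colony A9, and 3 were without RF-P3. With a pseudocount of 5, 1 gene was called higher and 2 lower, and with no filter on low values 1 was called higher. FRMD6, an upstream activator of the cascade, fell the most (log2 -3.11, SE 0.43, adjusted p = 0.0018), from 77.9 FPKM in RF-P3 to 2.64 in colony C8. RASSF1, which binds STK3 and STK4, and LIMD1, a LIM protein that restrains LATS, also fell (log2 -1.57 and -1.30, adjusted p = 0.0013 and 0.011), as did WWC2, a relative of KIBRA (adjusted p = 0.0041). FAT1, an atypical cadherin and the most abundant not called, was at 32.8 to 37.6 FPKM before and 27.1 to 34.5 in NESCs.

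The VGLL cofactors bind TEAD in place of YAP. Of 3 tested, 0 were called by limma in either direction, where 20.8% of all genes were. At an unadjusted p under 0.05, 2 were lower, where 26.4% of all genes were, and 0 were higher, where 22.1% were. Without CHIR-P6, 1 was called lower. VGLL4, which represses TEAD targets, was at 20.8 to 24.0 FPKM before and 11.2 to 15.3 in NESCs (log2 -0.74, SE 0.14, adjusted p = 0.0067), under the fold minimum. VGLL3 was at 67.7 FPKM in RF-P3 and 0.523 to 15.7 in NESCs (log2 -2.40, SE 0.99, adjusted p = 0.092).

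The genes most like 4 of the members over the 7 averages were taken from 5882 genes that reached 20 FPKM in a line, by Pearson r on log2(FPKM + 1). For TEAD2 they were DGCR8, RBM10 and EHMT2 (r = 0.995, 0.992 and 0.992), and for YAP1 they were MORF4L1, ID4 and C1H1orf123 (r = 0.990, 0.978 and 0.976). For ANKRD1 they were MYLPF, SFRP2 and ERF (r = 0.997, 0.996 and 0.994), and for CYR61 they were KIF1C, TPM3 and STK25 (r = 0.997, 0.997 and 0.995). The 7 points share libraries and stages and many genes were searched, so these values are a description only.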

How the data were processed

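RNA of 7 cell lines was sequenced by the authors from libraries depleted of ribosomal RNA, 2 per line. The deposited values are FPKM. Per the submitters' processing notes, the tools were HISAT2 2.1.0, Cufflinks 2.2.1 and Cuffnorm 2.2.1, and the build Mmul_8.0.1. In the deposited table, 28445 of 33737 loci had their values 1 position off their gene label; these were moved back and 49 loci left out. Of 1627 genes, 1481 then matched the study's own averages within 0.3 on the log2(FPKM + 1) scale, against 144 as labelled; both members among them matched.

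Low values were whole multiples of a read in 6527 genes (tolerance 0.1 read or 2%). The squared difference of a pair over its sum was 0.121 to 0.146, against 1.03 in simulated independent pairs, so pairs were averaged. Pairs simulated to share fragments gave 0.193, a value set by the share chosen. Read counts were not used here.

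Averages were tested as log2(FPKM + 1) with limma 3.58.1 (R 4.3.3, intensity trend) over 15024 genes reaching 1 FPKM in 2 or more libraries, with Benjamini-Hochberg adjustment over all of them. The fit was also run on simulated data drawn independently for each line, which cannot test dependence between successive stages. This scale understates changes of genes with low FPKM. Alternatives were pseudocounts of 0.1 and 5, other filters and scalings, 1 library per line, 14 libraries with and without a replicate block, leaving out each line, no fold minimum and no trend. All members are named; of each other pathway list, up to 3 called genes per direction by log2 fold change and the most abundant not called, and other genes were chosen after their values were seen. The members and lists were chosen with earlier results of these data known. Python 3.11.15, NumPy 2.4.6, pandas 2.3.3 and Matplotlib 3.10.9 were used.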

Additional observations from a re-analysis of the deposited data

Results flagged for a closer look

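CHIR-P6 stood apart from the other NESC lines in WWTR1. It was at 17.6 FPKM there, with the other 3 NESC lines at 8.47 to 8.82, so that the gap to the nearest line took 0.961 of the range of the 4 lines. The share of WWTR1 in the summed FPKM of YAP1 and WWTR1 was 27.8% in CHIR-P6 and 13.0% to 14.3% in the other NESC lines, a gap of 0.915 of the range. Both values rest on the same gene. Of 16 quantities read in this way, chance marks about 1 in 20.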

How the results depend on the processing

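TEAD2 was called higher and WWTR1 lower under each of the 18 alternatives, with log2 fold changes of 1.14 to 1.60 and -1.79 to -1.28, and YAP1 and LATS2 under none. LATS2 changed sign without RF-P3 (log2 0.065; -0.71 to 0.065 over all alternatives). Members called lower were 2 to 5 without 1 line, and 5 with no fold minimum, which lets TEAD1 and TEAD4 in. TEAD3 lost its call with a pseudocount of 5 (log2 -0.78) and with quantile normalization (log2 -0.99), CYR61 with no filter on low values (adjusted p = 0.056), and ANKRD1 gained one with a pseudocount of 0.1 (log2 -6.30, adjusted p = 0.037). Quantile normalization moved the median of all genes by 0.17 and equal library totals by 0.11. All genes called were 1137 higher and 1987 lower, 501 and 1115 with a pseudocount of 5, and 2522 and 3094 with no fold minimum. Between lines, 1 member was 2-fold lower at day 11 than at day 5 with a pseudocount of 5, and with one of 0.1, 2 were lower in CHIR-P23 than in CHIR-P6 and 2 in colony A9 than in colony C8.

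Replicate numbers did not pair the lines, with correlations of same-numbered deviations of -0.033 to 0.044. The fit of 14 libraries with the replicate block called 1 member higher and 4 lower, the same counts as without the block, and added ANKRD1 (log2 -4.34, adjusted p = 0.0082). It treats libraries that differ by less than sampling noise as separate samples. FPKM below 1, as for ANKRD1 in NESCs, rest on few reads, yet they counted in the comparison of averages that do not overlap.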

Other observations

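CYR61 was low in CHIR-P6 and colony A9 and higher in CHIR-P23 and colony C8, and other genes with this order were looked for after its values had been seen. Of 15024 genes tested, 30 (0.2%) were at least 2-fold higher in CHIR-P23 than in CHIR-P6 and at least 2-fold lower in colony A9 than in colony C8. They included 2 of 19 genes of the target signature, CTGF and CYR61, of which CYR61 set the order and so had to be among them. Also included were 2 of 14 junction regulators (AJUBA and WTIP, LIM proteins that restrain LATS) and 2 of 12 genes of the contractile list (TAGLN and TPM1). Of the core kinases and scaffolds 0 of 11 were included, so most genes of each list did not have this order. TAGLN, the actin-binding transgelin, was at 2.14 FPKM for CHIR-P6, 61.7 for CHIR-P23, 84.7 for colony C8 and 0.824 for colony A9. AJUBA was at 5.72 FPKM for CHIR-P6, 17.9 for CHIR-P23, 19.7 for colony C8 and 7.25 for colony A9. No member other than CYR61 was among the 30. ACTA2, a smooth muscle actin of the contractile list, had another order, at 45.7 FPKM for CHIR-P6, 10.6 for CHIR-P23, 1.78 for colony C8 and 0.903 for colony A9. Relative depth was 1.54 for CHIR-P6, 4.72 for CHIR-P23, 1.27 for colony C8 and 5.28 for colony A9, and its part was not tested.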
